A study of Mus musculus with 18 samples.

Results

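The hypoxia-inducible factor (HIF) pathway was followed through 35 genes: the 3 HIF subunits, 5 genes that sense oxygen or degrade HIF, and 27 genes outside glycolysis that HIF is known to switch on. The members were taken by gene symbol, matched to the Ensembl identifiers of GRCm38 that the count files list, and all 35 were among the 55029 genes of the files for *E. coli* and IFN-γ and among the 54232 genes of the files for IL-4. The cells were eosinophils washed from the peritoneal cavity of C57BL/6 NJ.1638 mice, which carry an *Il5* transgene driven in T cells by the CD3δ promoter, and were purified by removing cells that bear Thy1.2 or B220. They were cultured in DMEM with fetal calf serum and stimulated for 18 hours with heat-inactivated *E. coli*, with IFN-γ at 50 ng/ml, with both, or with IL-4 at 100 ng/ml, and the labels give 3 libraries for each of these and 6 for unstimulated cells. All groups, the unstimulated cells included, carry the transgene. The ages of the mice, their number, the oxygen level of the cultures and the time the unstimulated cells spent in culture are not given in the sources used here. The study calls its libraries biological replicates, and neither the labels nor the methods say whether those of a group came from separate mice, pools of mice or cultures, so the p-values measure the spread between these libraries.

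HIF is a dimer of an unstable alpha subunit, HIF-1α or HIF-2α, and the stable partner ARNT. While oxygen is present, prolyl hydroxylases mark the alpha subunit and the VHL ubiquitin ligase sends it to the proteasome; when oxygen is low or the hydroxylases are inhibited, the dimer accumulates, binds DNA and raises genes for angiogenesis, mitochondrial turnover, collagen modification and the hydroxylases themselves. In myeloid cells bacterial products and cytokines are known to raise HIF-1α while oxygen is present, much of it through the amount of protein, which RNA does not measure.

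The libraries fall into 2 sets by the layout of their files. Unstimulated libraries a to c belong with *E. coli*, IFN-γ and their combination, and unstimulated libraries d to f with IL-4. In the main comparisons a stimulus was only set against unstimulated libraries of the same layout, so that those of the first set share libraries a to c. Values against all 6 unstimulated libraries are an alternative that joins the file sets. Counts on genes per library were 2419241, 1562034 and 2211861 in unstimulated libraries a to c, 2318235, 2734041 and 1980073 with *E. coli*, 1859508, 2006059 and 1654831 with IFN-γ, and 1523808, 1970637 and 1719468 with both stimuli. For the IL-4 set they were 3625036, 6482289 and 5294968 in unstimulated libraries d to f and 5121421, 5909700 and 3827767 with IL-4. In the first set the highest gene of every library stops just under the number of different identifiers that 6 bases allow, while in the IL-4 set it held 87377 to 191131 counts. A gene near that ceiling in the first set may be undercounted, and a correction for it, chosen after seeing the data, is given where it ends a call or moves a value by over 1.5 times. Library e stood apart: its chi-square per gene was 23.7 against d and 22.0 against f, and that of d against f was 7.86. In the first set library 3 of *E. coli* (3.76 and 4.60, against 1.64 between the other libraries of its group), library 3 of both stimuli (6.04 and 5.02, against 2.66) and unstimulated library b (4.58 and 4.503, against 2.49) stood apart as well. Levels are in CPM, counts scaled to a common library total after TMM normalization within a set, and levels of different sets are not compared. A change is called at an adjusted p under 0.05 in edgeR's quasi-likelihood test, and log2 fold changes carry an approximate standard error (SE). In the first set Pgf, Adm, Stc2, Mgarp, P4ha2 and Ndrg1 passed the filter on low counts only through stimulated libraries, in which they were high, with no unstimulated library over its minimum. Their calls against libraries a to c are no support, and counts are also given without them. Ankrd37 had 2 of libraries a to c over the minimum and also needed stimulated libraries to pass. Its calls against libraries a to c are no support either, though it remains in the counts without the 6.

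The defining genes of eosinophils were present in every library, with exceptions among the granule genes. The 9 eosinophil markers summed to 3842, 5137 and 3989 CPM in unstimulated libraries a to c, 3519, 3116 and 3533 with *E. coli*, 4070.4, 3604 and 4445 with IFN-γ, 3275, 2892 and 3124 with both, 5171, 6000.1 and 5291 in libraries d to f and 5029.6, 5231 and 5104 with IL-4. Alox15 or Ccr3 was the most abundant of them in each group, and Epx, eosinophil peroxidase, was at 3 counts or fewer in every library with *E. coli*, IFN-γ or both. The 14 macrophage markers, led by Adgre1 in the first set and Apoe in the IL-4 set, summed to 2668, 2639 and 2714 CPM in libraries a to c, 2187, 2014 and 3096 with *E. coli*, 3599.7, 3455 and 3767 with IFN-γ, 3268, 3505 and 4192 with both, 5011, 4895 and 5661 in libraries d to f and 3882, 3689 and 4438 with IL-4. This sum was higher in every library with IFN-γ, alone or with *E. coli*, than in libraries a to c, and lower in every library with IL-4 than in libraries d to f. Mouse eosinophils express Adgre1 themselves, but its mean was only 893 CPM of a mean sum of 2674 CPM in libraries a to c. In libraries d to f Apoe had a mean of 1760 CPM of a mean sum of 5189 CPM. The 6 B cell markers, led by Ighm, summed to 217, 196 and 117 CPM in libraries a to c, 40.8, 44.5 and 76.5 with *E. coli*, 100.2, 61.5 and 58.2 with IFN-γ, 121, 134 and 128 with both, 24.995, 23.7 and 43.4 in libraries d to f and 64.3, 58.7 and 71.8 with IL-4. All 5 B cell markers tested fell with *E. coli*, 4 of 5 with IFN-γ and none with both (1, Ighm, at an unadjusted p under 0.05 in edgeR and 0 by DESeq2), and 3 of 4 tested rose with IL-4. Of 14 macrophage markers 5 fell with *E. coli*, 5 rose and 2 fell with IFN-γ, 4 rose and 3 fell with both, and 5 fell with IL-4.

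The 9 neutrophil markers, led by Retnlg, summed to 559, 688 and 551 CPM in libraries a to c, 353, 341 and 403 with *E. coli*, 680.1, 625 and 735 with IFN-γ, 331, 397 and 425 with both, 1995, 1946 and 1677 in libraries d to f and 779.6, 809 and 732 with IL-4. The neutrophil granule genes Mpo, Elane, Ltf and Ngp were at 3 counts or fewer in every library of the first set. Mast cell markers, led by Tpsb2 or Cma1, summed to 9.69, 8.24 and 7.43 CPM in libraries a to c, 10.2, 6.69 and 34.6 with *E. coli*, 30.2, 14.4 and 13.1 with IFN-γ, 36.5, 72.3 and 66.6 with both, 8.61, 6.63 and 7.36 in libraries d to f and 17.3, 7.98 and 20.7 with IL-4. The 8 T and NK cell markers, led by Cd3d, summed to 9.32, 5.704 and 3.72 CPM in libraries a to c, 5.303, 3.34 and 5.43 with *E. coli*, 4.48, 4.101 and 4.58 with IFN-γ, 5.11, 5.48 and 3.297 with both, 5.55, 4.14 and 4.72 in libraries d to f and 5.897, 2.82 and 1.296 with IL-4. Cd3e, Cd4, Cd8a and Nkg7 were at 3 counts or fewer in every library. The 5 dendritic cell markers, led by Xcr1, summed to 7.45, 3.803 and 5.37, 4.08, 5.35 and 4.44, 8.396, 6.15 and 3.92, 6.57, 8.77 and 4.62, 5.55, 4.31 and 7.93 and 7.61, 13.5 and 17.9 CPM in the same order of groups. Of the 57 markers, 31 were tested in the first set and 36 in the IL-4 set, where 2 rose and 13 fell with *E. coli*, 8 rose and 10 fell with IFN-γ, 9 rose and 8 fell with both, and 8 rose and 7 fell with IL-4. Of all genes tested 13.5% rose and 16.7% fell with *E. coli*, 15.6% and 16% with IFN-γ, 23.9% and 25.2% with both, and 5.97% and 4.35% with IL-4. The part that other cells had in the results was not tested. In bulk RNA, fewer cells of a type and less RNA per cell cannot be told apart.

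Heat-inactivated *E. coli*, which carries ligands of the Toll-like receptors, raised much of the HIF programme. Ankrd37, an ankyrin repeat protein, rose 8.22-fold, the hydroxylase Egln3 6.53-fold, the angiogenic factor Vegfa 5.39-fold, the collagen hydroxylase P4ha1 4.62-fold and the subunit Hif1a 1.54-fold. Bnip3l, a mitophagy receptor, was the 1 member that fell. Of 33 members tested, 21 were called higher, where 13.5% of all 9883 genes tested were, and 1 was called lower, where 16.7% were. Without the 6 members that had no unstimulated library over the filter's minimum, 19 of 27 were higher and 1 lower, with a median log2 fold change of 0.58. These 19 include Ankrd37, whose call is no support either. The other 11 of the 33 did not pass, and Epas1 and Plod2 were left out by the filter on low counts. The tested members had a median log2 fold change of 0.63, or 0.60 with members at 3 counts or fewer in every library of a group set at 3 counts, and all genes tested had -0.024. Leaving out each library in turn gave 15 to 23 members called higher, and the calls of Wsb1, Plin2, Anxa2, Vhl, Higd1a, Rbpj and Kdm3a ended without some library. With all 6 unstimulated libraries as 1 group, which joins the file sets, 10 of the 22 calls ended, with log2 fold changes of 0.014 for Hif1a, 0.039 for Vhl, 0.78 for P4ha2 and 0.45 for Kdm3a, and with the sign turned for Vegfa (-0.057), Hilpda (-0.084), Plin2 (-0.18), Wsb1 (-0.044), Anxa2 (-0.61) and Bnip3l (0.23). Calls that held there but moved by over 1.5 times were Ankrd37 at 1.66, Egln3 at 1.55, P4ha1 at 1.35, Mif at 1.29, Higd1a at 1.17 and Bnip3 at 2.62.

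IFN-γ, the cytokine of type 1 immunity, raised more members. Egln3 rose 23.2-fold, Vegfa 20.2-fold, Ankrd37 18.98-fold, the mitophagy receptor Bnip3 18.1-fold and Fam162a, a mitochondrial protein tied to cell death under low oxygen, 17.5-fold. Hif1a itself rose 1.68-fold. Of 33 members tested, 27 were called higher, where 15.6% of all genes tested were, and none was called lower, where 16% were. At an unadjusted p under 0.05 in edgeR 1, Pgf, was lower, and by DESeq2 0 were. Egln2, Hif1an, Pgf, Plod1, Ankzf1 and Rbpj did not pass. Without the 6 members named above, 22 of 27 were higher, Ankrd37 included. The median log2 fold change was 1.74 over the tested members, 1.40 without those 6 and -0.032 over all genes tested. The calls of Arnt and Vhl ended without some library. Against all 6 unstimulated libraries 6 of the 27 calls ended, with log2 fold changes of 0.16 for Hif1a, 1.87 for Vegfa, 0.48 for Plin2, 0.11 for Anxa2, 0.18 for Vhl and -0.34 for Arnt. Among the calls that held, log2 fold changes moved by over 1.5 times for Egln3 (3.40), Ankrd37 (2.89), P4ha1 (2.31), Mif (2.61), Hilpda (1.29), Ndrg1 (1.79), P4ha2 (1.85), Stc2 (3.66), Adm (2.17) and Mgarp (3.51), which were lower than against libraries a to c, and for Bnip3 (5.14), Bnip3l (1.70) and Higd1a (2.43), which were higher.

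With both stimuli nearly all tested members were raised. Vegfa rose 52.2-fold, Ankrd37 31.8-fold, Egln3 31.7-fold, Fam162a 28.8-fold and Bnip3 25.3-fold. Hif1a rose 1.999-fold. Of 33 members tested, 31 were called higher, where 23.9% of all genes tested were, and none was called lower, where 25.2% were, so that Egln2 and Pgf alone did not pass. By an unadjusted p under 0.05 in edgeR, and by DESeq2, 0 were lower as well. Without those 6 members, 26 of 27 were higher, Ankrd37 included. The median log2 fold change was 2.15 over the tested members, 1.76 without them and -0.040 over all genes tested. The calls of Arnt, Ankzf1 and Rbpj ended without some library. Against all 6 unstimulated libraries 5 of the 31 calls ended, with log2 fold changes of 0.43 for Hif1a, 0.60 for Anxa2, 0.67 for Vhl, 0.39 for Hif1an and -0.29 for Arnt. Other calls held with log2 fold changes lower by over 1.5 times, at 3.26 for Vegfa, 3.48 for Ndrg1, 3.66 for Ankrd37, 3.87 for Egln3, 2.74 for P4ha1, 2.97 for P4ha2, 3.04 for Mif, 2.51 for Hilpda, 0.93 for Plin2, 5.20 for Stc2, 3.27 for Adm and 4.23 for Mgarp, or higher by as much, at 5.65 for Bnip3, 2.12 for Bnip3l, 2.86 for Higd1a and 1.35 for Ankzf1. Scaling libraries by their totals alone shifted the median of all genes by -0.18 on the log2 scale for IFN-γ and by -0.25 for the combination. The genes called higher and lower were then 970 and 2448 for IFN-γ, in place of 1541 and 1579, and 1536 and 3676 for the combination, in place of 2358 and 2486. Members called under that scaling were 25 higher and 1 lower with IFN-γ and 28 higher and 0 lower with the combination.

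IL-4, the cytokine of type 2 immunity, raised fewer members. Mgarp, a mitochondrial protein, rose 5.72-fold, the hydroxylase Egln1 1.94-fold, Vegfa 1.83-fold and Ero1l, an oxidase of protein folding, 1.63-fold, and these 4 calls held without any 1 of the 6 libraries. Hif1a and Plin2, a coat protein of lipid droplets, were called lower. Of 32 members tested, 11 were called higher, where 5.97% of all 10556 genes tested were, and 2 lower, where 4.35% were. The 11 include Bnip3, which was over the filter's minimum in 2 of libraries d to f and all 3 with IL-4. It needed the IL-4 libraries to pass, so that its call is no support. The other 19 did not pass, and Pgf, Stc2 and Plod2 were left out by the filter on low counts. The median log2 fold change was 0.29 over the tested members and 0.00057 over all genes tested. The calls of Hif1a, Plin2, Mif, Bnip3, Fam162a, Higd1a, P4ha1, Ddit4 and Mxi1 ended without some library, and 4 to 13 members were called higher when each library was left out in turn. Against all 6 unstimulated libraries 5 of the 13 calls ended, with log2 fold changes of 1.74 for Vegfa, -0.13 for Hif1a, -0.013 for Plin2, -1.14 for Bnip3 and -0.33 for Higd1a, and Mgarp was at 3.26.

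**Figure D1:**
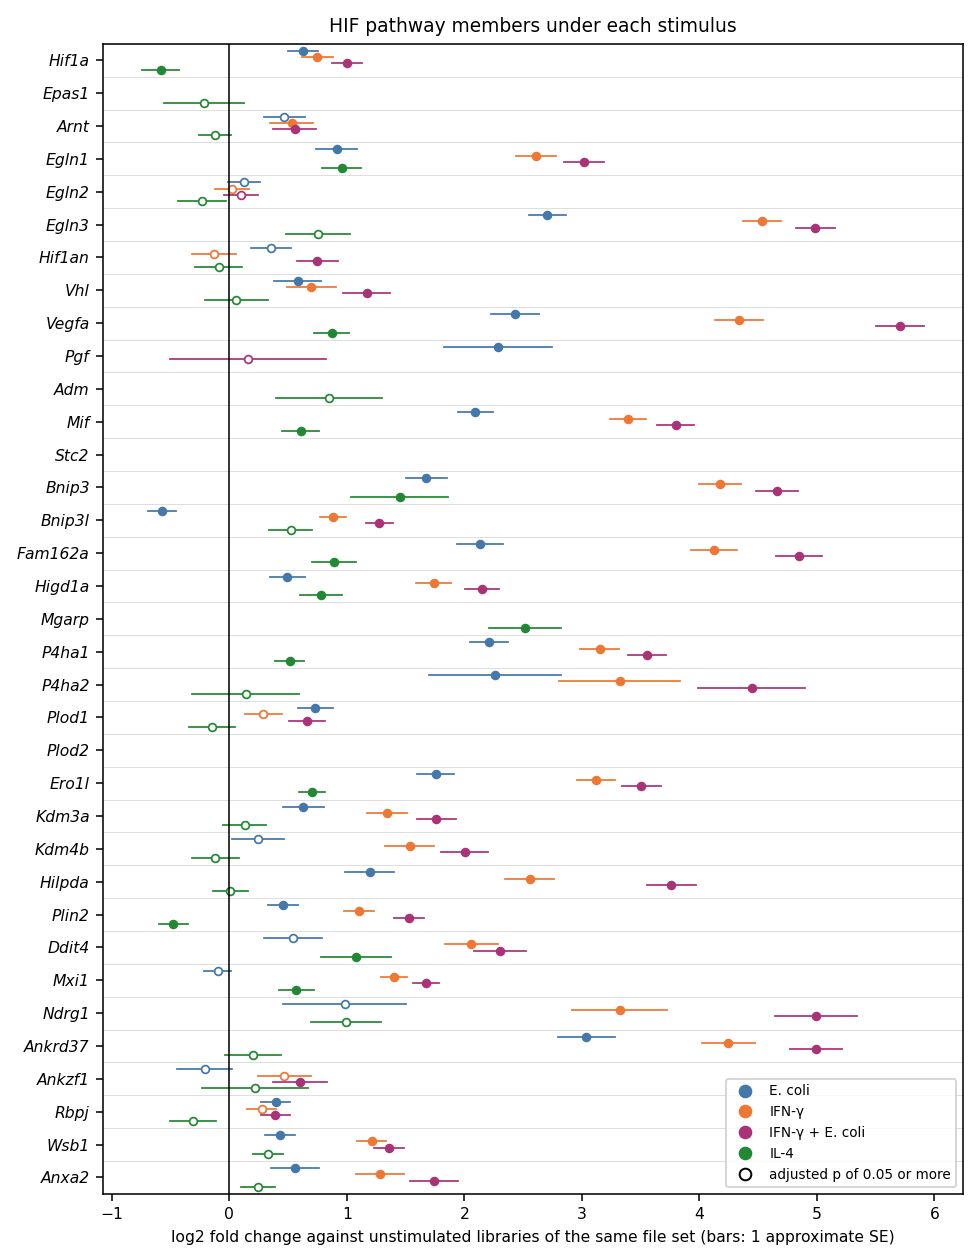
Log2 fold change of each member against the unstimulated libraries of its file set, with bars of 1 approximate standard error, filled where an adjusted p under 0.05 was reached, with no point for members not tested or at 3 counts or fewer in every library of a group. With both stimuli 31 members were called higher, where 23.9% of all genes tested were. Without the 6 members that had no unstimulated library over the filter's minimum, 26 of 27 were higher. These 26 include Ankrd37, which also needed stimulated libraries to pass. With IL-4 11 of 32 were higher and 2, Hif1a and Plin2, lower, where 5.97% and 4.35% of all genes tested were. The 11 include Bnip3, which needed the IL-4 libraries to pass the filter.

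Among the subunits, Hif1a, which encodes HIF-1α, was at 479, 551 and 593 CPM in unstimulated libraries a to c, 893, 779 and 833 with *E. coli*, 845, 825 and 1061 with IFN-γ and 1194, 954 and 1097 for the combination. Every stimulated library was above the 3 unstimulated ones. In the IL-4 set it was at 742, 1050.3 and 768 CPM in libraries d to f and 619, 589 and 498 with IL-4, and here every library with IL-4 was below the unstimulated ones, of which e was the highest. The log2 fold changes were 0.63 (SE 0.13) with *E. coli*, 0.75 (0.13) with IFN-γ and 1.00 (0.13) for the combination, with adjusted p of 0.000971, 0.00018 and 3.55e-06, and with IL-4 -0.59 (SE 0.15, adjusted p = 0.0369), a call that ended without library f, IL-4 1, IL-4 2 or IL-4 3 (adjusted p = 0.0513 to 0.137). Against all 6 unstimulated libraries its log2 fold changes were 0.014, 0.16, 0.43 and -0.13, and none passed. A fit over all 18 libraries, with separate unstimulated groups for the file sets, compared the responses themselves, and the Hif1a response to IL-4 was below that to both stimuli, by -1.64 (SE 0.20, adjusted p = 1.56e-06).

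Arnt, the stable partner of both alpha subunits, was at 26.5, 35.5 and 25.6 CPM in unstimulated libraries a to c, 39.2, 44.5 and 34.6 with *E. coli*, 34.7, 43.6 and 46.4 with IFN-γ and 35.8, 41.6 and 48.8 for the combination. Unstimulated library b was the highest of its group, above the lowest library of *E. coli* and of IFN-γ, so these groups overlapped, while with both stimuli they did not. Its log2 fold changes were 0.53 (SE 0.18, adjusted p = 0.0316) with IFN-γ, a call that ended without library a, library c, IFN-γ 2 or IFN-γ 3 (adjusted p = 0.0806 to 0.126), and 0.56 (SE 0.18, adjusted p = 0.0173) with both, one that ended without library a, library c or both stimuli 3 (adjusted p = 0.0689 to 0.075), and 0.47 (SE 0.18, adjusted p = 0.051) with *E. coli*, which did not pass, though it did in a fit of only the 6 libraries compared (adjusted p = 0.0368). Arnt was at 54.4, 55.5 and 64.9 CPM in libraries d to f and 56.5, 52.3 and 52.1 with IL-4, groups that overlapped. Epas1, which encodes HIF-2α, was scarce, with 9, 5 and 16 counts in libraries a to c, 4, 6 and 3 with *E. coli*, 5, 6 and 4 with IFN-γ and 3, 5 and 5 with both, and was not tested there. In the IL-4 set Epas1 had 24, 46 and 50 counts in libraries d to f and 51, 40 and 15 with IL-4, with a log2 fold change of -0.22 (SE 0.34, adjusted p = 0.736) and overlapping groups.

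The oxygen sensors split into genes that moved and genes that did not pass. Egln3, which encodes the hydroxylase PHD3, was at 45.1, 57.7 and 53.7 CPM in unstimulated libraries a to c, 345, 340.0 and 329 with *E. coli*, 973, 1171 and 1456 with IFN-γ and 1709.8, 1489 and 1732 for the combination. No groups overlapped, and the 3 libraries with *E. coli* lay close together. The log2 fold changes were 2.71 (SE 0.16) with *E. coli*, 4.53 (0.16) with IFN-γ and 4.99 (0.16) for the combination, with adjusted p of 4.37e-10, 1.15e-12 and 1.31e-13, and a correction for the count ceiling, chosen after seeing the data, gave 5.64 with both stimuli. Egln3 was at 83.04, 208 and 117 CPM in libraries d to f and 223, 206 and 262 with IL-4, where unstimulated library e lay above the lowest library of IL-4 and the groups overlapped. Its log2 fold change of 0.75 (SE 0.27, adjusted p = 0.111) with IL-4 did not pass, and without library e it was 1.19 (adjusted p = 8.53e-05).

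Egln1, which encodes PHD2, the main hydroxylase that limits HIF while oxygen is present, was at 55.5, 50.1 and 47.5 CPM in unstimulated libraries a to c, 92.2, 86.6 and 112 with *E. coli*, 224, 347 and 369 with IFN-γ and 427, 378 and 439.9 for the combination. The groups lay in that order without overlap. Egln1 was at 34.99, 44.2 and 38.7 CPM in libraries d to f and 68.5, 70.4 and 91.2 with IL-4, again without overlap. Log2 fold changes of Egln1 were 0.92 (SE 0.17) with *E. coli*, 2.61 (0.17) with IFN-γ and 3.02 (0.17) for the combination, with adjusted p of 0.000522, 1.16e-09 and 6.19e-11, and 0.96 (SE 0.16, adjusted p = 0.00471) with IL-4. Egln2, which encodes PHD1, was at 38.8, 44.998 and 43.4 CPM in unstimulated libraries a to c, 45.7, 41.8 and 51.3 with *E. coli*, 42.5, 41.5 and 44.5 with IFN-γ and 48.2, 42.2 and 45.5 for the combination, and at 36.7, 56.2 and 35.7 CPM in libraries d to f and 38.6, 32.1 and 39.4 with IL-4. All its groups overlapped, and none of its log2 fold changes, from -0.23 with IL-4 to 0.13 with *E. coli*, passed.

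Vhl, which encodes the subunit that recognises hydroxylated HIF, was at 21.2, 15.8 and 19.8 CPM in unstimulated libraries a to c, 31.002, 27.1 and 28.6 with *E. coli*, 22.9, 31.8 and 39.9 with IFN-γ and 37.2, 42.2 and 50.8 for the combination. Each stimulated group was above the unstimulated one, and IFN-γ library 1 came closest to it. The values were 0.58 (SE 0.20) with *E. coli*, 0.70 (0.21) with IFN-γ and 1.17 (0.20) for the combination on the log2 scale, with adjusted p of 0.0348, 0.0149 and 9.31e-05, where the first call ended without any 1 of the 6 libraries compared (adjusted p = 0.0523 to 0.102) and the next without IFN-γ 3 (adjusted p = 0.0867). The IL-4 set held 23.1, 42.2 and 18.7 CPM in libraries d to f and 30.1, 30.4 and 27.7 with IL-4, with library e the highest and the groups overlapping, and 0.060 (SE 0.27, adjusted p = 0.916) did not pass. Hif1an, which encodes FIH, the hydroxylase that blocks binding of coactivators, was at 21.98, 24.1 and 23.1 CPM in unstimulated libraries a to c, 31.4, 25.7 and 31.6 with *E. coli*, 24.1, 16.9 and 22.2 with IFN-γ and 42.4, 34.5 and 39.6 for the combination. Only the group with both stimuli passed against the unstimulated libraries, at 0.75 (SE 0.17, adjusted p = 0.00159), and it was also above IFN-γ alone, at 0.88 (SE 0.18, adjusted p = 0.00345). Hif1an was at 22.5, 36.1 and 26.99 CPM in libraries d to f and 27.96, 29.6 and 23.1 with IL-4, groups that overlapped.

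**Figure D2:**
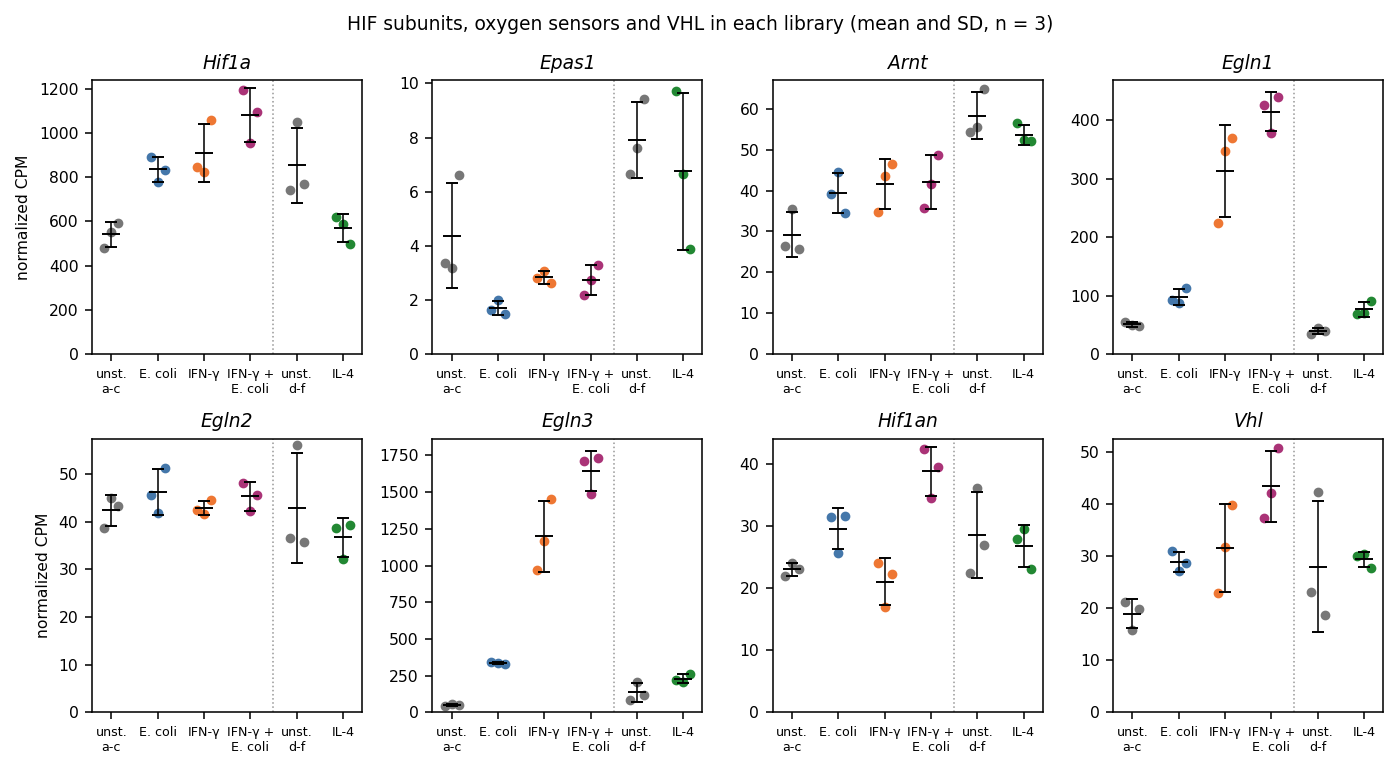
Normalized CPM of the HIF subunits, the oxygen sensors and Vhl in each library, with the mean and SD of 3 libraries; the dotted line separates the file sets, whose levels are not comparable. Hif1a was above libraries a to c in every library with E. coli, IFN-γ or both, and lower in every library with IL-4 than in libraries d to f; Egln3 and Egln1 rose with the 3 stimuli on the left, and Epas1 was near the detection limit there.

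Among secreted factors, Vegfa, the main growth factor of blood vessels, was at 18.3, 18.4 and 26.02 CPM in unstimulated libraries a to c, 107, 122 and 112 with *E. coli*, 307, 433 and 541 with IFN-γ and 1158, 983 and 1166 for the combination. The 4 groups did not overlap, and the libraries with both stimuli were the highest. Vegfa was at 180.0, 179 and 131 CPM in libraries d to f and 313, 312 and 269.9 with IL-4, also without overlap. On the log2 scale Vegfa changed by 2.43 (SE 0.21) with *E. coli*, 4.34 (0.20) with IFN-γ and 5.71 (0.21) for the combination, with adjusted p of 6.07e-08, 1.34e-11 and 4.92e-13, and 0.87 (SE 0.15, adjusted p = 0.00427) with IL-4. Mif, a cytokine that counters glucocorticoids, was at 77.9, 110.3 and 98.3 CPM in unstimulated libraries a to c, 387, 392 and 435 with *E. coli*, 819, 989.8 and 1181 with IFN-γ and 1226, 1308 and 1425 for the combination. Its groups followed the same order without overlap, and the log2 fold changes were 2.09 (SE 0.15) with *E. coli*, 3.39 (0.15) with IFN-γ and 3.80 (0.16) for the combination, with adjusted p of 8.12e-09, 9.47e-12 and 1.01e-12. With IL-4 Mif was at 167, 203 and 169.9 CPM in libraries d to f and 228, 263 and 332 with IL-4, a rise of 0.61 (SE 0.16, adjusted p = 0.0343) with groups apart, which did not pass without library d, library f, IL-4 2 or IL-4 3 (adjusted p = 0.0734 to 0.143).

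Adm, which encodes the vasodilator adrenomedullin, and Stc2, a secreted glycoprotein, were nearly absent without stimulation. Adm had 2, 0 and 2 counts in unstimulated libraries a to c, 4, 1 and 4 with *E. coli*, 11, 17 and 12 with IFN-γ and 12, 34 and 31 with both. The libraries of IFN-γ, alone or with *E. coli*, were above all others. The ratio of summed counts to the unstimulated libraries, adjusted for library size, was 12.7 (95% interval 4.59 to 48.8) with IFN-γ and 27.3 (95% interval 10.2 to 103) with both, where the intervals cover counting error only. Adm was at 1.39, 1.49 and 2.83 CPM in libraries d to f and 2.66, 4.15 and 3.63 with IL-4, with 0.85 (SE 0.45, adjusted p = 0.273) and groups that overlapped.

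Stc2 had 0, 0 and 1 counts in libraries a to c, 0, 0 and 1 with *E. coli*, 5, 19 and 14 with IFN-γ and 43, 30 and 22 with both. It was seen mainly where IFN-γ was present, and the 1 count of the unstimulated libraries lay in library c. Its summed counts were higher than those of the unstimulated libraries by a ratio of 48.2 (95% interval 8.15 to 1954) with IFN-γ and 135 (95% interval 23.6 to 5379) with both. With IL-4 it had 12, 11 and 9 counts, against 3, 4 and 2 in libraries d to f, and was not tested. Pgf, placental growth factor, followed another course, with 4, 4 and 2 counts in libraries a to c, 15, 26 and 16 with *E. coli*, 0, 1 and 0 with IFN-γ and 1, 5 and 2 with both. It was highest in the 3 libraries with *E. coli* alone, the group that brought it past the filter, with a log2 difference of 2.29 (SE 0.46) from unstimulated cells, and IFN-γ with *E. coli* differed from *E. coli* alone by -2.13 (SE 0.49), or -2.80 without library 2 of both stimuli. With IFN-γ alone the ratio of its summed counts to the unstimulated libraries was 0.127 (95% interval 0.00292 to 0.892), which did not pass. It had 0, 8 and 2 counts in libraries d to f and 5, 7 and 3 with IL-4.

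Of the members that act on mitochondria and cell death, Bnip3, a receptor for mitophagy on the outer membrane, was at 45.1, 44.4 and 47.9 CPM in unstimulated libraries a to c, 132, 146 and 163 with *E. coli*, 616, 832 and 1044 with IFN-γ and 1169, 1072 and 1239 for the combination. The groups lay in this order and did not overlap. On the log2 scale the changes were 1.68 (SE 0.17) with *E. coli*, 4.18 (0.18) with IFN-γ and 4.66 (0.18) for the combination, with adjusted p of 6.63e-07, 5.41e-12 and 4.92e-13. Bnip3 was at 1.11, 3.81 and 3.59 CPM in libraries d to f and 7.42, 6.81 and 10.4 with IL-4, with 4, 23 and 19 counts and 39, 41 and 40 counts, and rose at 1.45 (SE 0.41, adjusted p = 0.0497), a call that ended without library d, library f, IL-4 1, IL-4 2 or IL-4 3 (adjusted p = 0.0672 to 0.172). In the IL-4 set Bnip3 needed the IL-4 libraries to pass the filter on low counts, so that this call is no support. Its transcripts share at least 95% of their bases over 200 bases or more with 5 other annotated genes, 3 of them pseudogenes, so its counts are uncertain where reads could be split among copies.

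Bnip3l, the related receptor also called NIX, was at 196, 181 and 159 CPM in unstimulated libraries a to c, 115, 114 and 132 with *E. coli*, 294, 356 and 339 with IFN-γ and 447, 441 and 411 for the combination. Here the libraries with *E. coli* were below and those with IFN-γ, alone or with *E. coli*, above the unstimulated ones, none overlapping. Its changes were -0.57 (SE 0.12) with *E. coli*, 0.88 (0.11) with IFN-γ and 1.28 (0.11) for the combination on the log2 scale, with adjusted p of 0.000946, 7.69e-06 and 3.24e-08. Bnip3l was at 19.7, 27.2 and 24.7 CPM in libraries d to f and 32.9, 30.7 and 40.4 with IL-4, and 0.52 (SE 0.18, adjusted p = 0.102) did not pass although the groups were apart. Fam162a, also called HGTD-P, was at 21.98, 29.8 and 24.8 CPM in unstimulated libraries a to c, 93.01, 109 and 130.3 with *E. coli*, 329, 469.5 and 519 with IFN-γ and 624, 782 and 764 for the combination. Its groups lay in that order without overlap, at 2.13 (SE 0.20) with *E. coli*, 4.13 (0.19) with IFN-γ and 4.85 (0.20) for the combination, with adjusted p of 1.75e-07, 1.35e-11 and 8.71e-13. Fam162a was at 30.8, 25.2 and 36.8 CPM in libraries d to f and 51.9, 51.7 and 68.95 with IL-4, and rose at 0.89 (SE 0.19, adjusted p = 0.0143), a call that ended without IL-4 3 (adjusted p = 0.0743).

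Higd1a, which helps to keep respiratory complexes together, was at 73.8, 68.4 and 56.2 CPM in unstimulated libraries a to c, 93.4, 93.95 and 91.8 with *E. coli*, 175, 239.9 and 247 with IFN-γ and 253, 298 and 328 for the combination. The order was the same, and the rise with *E. coli* did not pass without library c (adjusted p = 0.0912). Its log2 fold changes were 0.49 (SE 0.15) with *E. coli*, 1.74 (0.15) with IFN-γ and 2.15 (0.15) for the combination, with adjusted p of 0.0174, 4.37e-08 and 8.37e-10. It was at 14.7, 14.1 and 14.7 CPM in libraries d to f and 28.5, 23.6 and 22.3 with IL-4, and rose at 0.78 (SE 0.18, adjusted p = 0.021), a call that ended without library f, IL-4 1, IL-4 2 or IL-4 3 (adjusted p = 0.0502 to 0.117). Mgarp, a mitochondrial protein of steroid-making cells, had 1, 1 and 0 counts in libraries a to c, 8, 2 and 4 with *E. coli*, 32, 62 and 60 with IFN-γ and 59, 98 and 71 with both. The ratio of its summed counts to the unstimulated libraries was 97.7 (95% interval 26.6 to 814) with IFN-γ and 162 (95% interval 44.3 to 1344) with both, and with *E. coli* it was 6.26 (95% interval 1.44 to 56.8). Mgarp was at 3.33, 2.98 and 3.59 CPM in libraries d to f and 19.2, 12.96 and 25.1 with IL-4, groups far apart, and rose at 2.52 (SE 0.31, adjusted p = 0.000777), the largest log2 rise of a tested member with IL-4.

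Among the members for collagen modification and protein folding is P4ha1, a catalytic subunit of prolyl 4-hydroxylase. Without stimulation P4ha1 stood at 23.8, 19.6 and 35.9 CPM (libraries a, b and c). Its level was 118, 122 and 135 CPM after *E. coli*, 207, 253 and 260.3 CPM after IFN-γ, and 318, 319 and 317 CPM after both stimuli. The 3 libraries with both stimuli were almost equal, and no groups overlapped. Its log2 values were 2.21 (SE 0.16) with *E. coli*, 3.15 (0.16) with IFN-γ and 3.56 (0.16) for the combination, with adjusted p of 1.13e-08, 4.52e-11 and 3.68e-12. P4ha1 was at 55.3, 54.7 and 51.7 CPM in libraries d to f and 76.5, 77.3 and 76.99 with IL-4, tight groups that did not overlap, with 0.51 (SE 0.13, adjusted p = 0.0272), a call that ended without library f, IL-4 1, IL-4 2 or IL-4 3 (adjusted p = 0.0839 to 0.122). P4ha2, the alternative catalytic subunit, had 6, 1 and 1 counts in libraries a to c, 13, 14 and 17 with *E. coli*, 24, 15 and 26 with IFN-γ and 31, 65 and 34 with both. Every stimulated library was above the unstimulated ones, of which a was the highest. P4ha2 differed by 2.26 (SE 0.56) with *E. coli*, 3.32 (0.51) with IFN-γ and 4.44 (0.46) for the combination on the log2 scale, and without library a the values were 3.41, 4.47 and 5.59. With IL-4 P4ha2 was at 2.4995, 2.65 and 7.17 CPM in libraries d to f and 4.57, 3.66 and 5.703 with IL-4, groups that overlapped through library f, and 0.14 (SE 0.46, adjusted p = 0.882) did not pass.

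Ero1l, which encodes ERO1-α, the oxidase that drives disulfide formation, was at 161, 217 and 245 CPM in unstimulated libraries a to c, 712, 672 and 719 with *E. coli*, 1534, 1715 and 2173 with IFN-γ and 2568, 2097 and 2422 for the combination. IFN-γ library 3 was above library 2 of both stimuli, and the other groups were apart. Its counts in these libraries were 2741, 3346 and 3323 with IFN-γ and 3516, 3827 and 3673 with both, close to the ceiling. Ero1l changed by 1.76 (SE 0.16) with *E. coli*, 3.12 (0.16) with IFN-γ and 3.51 (0.17) for the combination on the log2 scale, with adjusted p of 1.16e-07, 5.49e-11 and 5.67e-12, and corrected for the ceiling they were 2.04, 4.01 and 4.79. Ero1l was at 214, 233 and 232 CPM in libraries d to f and 342, 375 and 389 with IL-4, groups apart, with 0.70 (SE 0.11, adjusted p = 0.00346). Plod1, a lysyl hydroxylase, changed by 0.73 (SE 0.15, adjusted p = 0.000951) with *E. coli* and 0.66 (SE 0.16, adjusted p = 0.00164) with both, while 0.29 with IFN-γ and -0.15 with IL-4 did not pass. Plod2, another lysyl hydroxylase, had 0 to 4 counts in every library and was not tested.

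Both histone demethylases responded to IFN-γ. Kdm3a, which removes methyl groups from histone H3, was at 26.8, 34.9 and 43.8 CPM in unstimulated libraries a to c, 55.1, 61.2 and 45.4 with *E. coli*, 78.9, 90.7 and 97.4 with IFN-γ and 132, 116 and 109 for the combination. No stimulated group overlapped the unstimulated one, and log2 fold changes were 0.63 (SE 0.17) with *E. coli*, 1.34 (0.17) with IFN-γ and 1.76 (0.17) for the combination, with adjusted p of 0.0088, 6.31e-06 and 7.43e-08. The rise with *E. coli* did not pass without library a or *E. coli* 2 (adjusted p = 0.0548 to 0.0783). Kdm4b was at 12.7, 22.2 and 17.8 CPM in unstimulated libraries a to c, 21.6, 20.4 and 18.3 with *E. coli*, 37.5, 51.8 and 59.5 with IFN-γ and 73.04, 60.8 and 71.9 for the combination. Here the group with *E. coli* overlapped the unstimulated one, while the groups with IFN-γ were far above, at 1.53 (SE 0.21, adjusted p = 1.37e-05) alone and 2.00 (SE 0.20, adjusted p = 1.68e-07) with *E. coli*, against 0.24 (SE 0.22, adjusted p = 0.445) for *E. coli*. Beside IL-4, Kdm3a was at 34.2, 38.3 and 28.9 CPM in libraries d to f and 32.5, 44.9 and 33.2 with IL-4. Kdm4b was there at 14.997, 20.2 and 16.4 CPM in libraries d to f and 15.8, 14.1 and 18.1 with IL-4. The groups of both genes overlapped, and neither passed, at 0.13 and -0.12.

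Hilpda and Plin2 belong to lipid droplets, which eosinophils use for making eicosanoids. Hilpda, an inhibitor of the lipase ATGL, was at 54.8, 53.9 and 58.6 CPM in unstimulated libraries a to c, 99.5, 102 and 186 with *E. coli*, 261, 372 and 354 with IFN-γ and 665, 756 and 855 for the combination. *E. coli* library 3 stood above the other libraries of its group, and no groups overlapped. Hilpda changed by 1.19 (SE 0.21) with *E. coli*, 2.56 (0.21) with IFN-γ and 3.76 (0.21) for the combination on the log2 scale, with adjusted p of 0.000243, 2.43e-08 and 5.53e-11. With IL-4 Hilpda was at 187, 143 and 166 CPM in libraries d to f and 178, 139 and 181 with IL-4, overlapping groups at 0.0066 (SE 0.15, adjusted p = 0.984). Plin2 was at 199, 213 and 224 CPM in unstimulated libraries a to c, 255, 257 and 362 with *E. coli*, 444, 457 and 466 with IFN-γ and 570.4, 613 and 652 for the combination. Its groups lay in the same order without overlap, at 0.46 (SE 0.13) with *E. coli*, 1.11 (0.13) with IFN-γ and 1.53 (0.13) for the combination, with adjusted p of 0.0104, 2.28e-06 and 1.48e-08, and the first of these did not pass without library a or *E. coli* 3 (adjusted p = 0.0537 to 0.0807). Plin2 was at 311, 342 and 375 CPM in libraries d to f and 226, 245 and 268 with IL-4, every library with IL-4 below libraries d to f, at -0.48 (SE 0.12, adjusted p = 0.0345), which did not pass without library f, IL-4 1, IL-4 2 or IL-4 3 (adjusted p = 0.0647 to 0.183). The Plin2 responses to IL-4 and to both stimuli differed by -2.07 (SE 0.18, adjusted p = 9.79e-09).

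The members that restrain growth did not pass with *E. coli* alone. Ddit4, also called REDD1, was at 8.57, 12.7 and 11.98 CPM in unstimulated libraries a to c, 14.7, 13.04 and 20.7 with *E. coli*, 40.3, 47.2 and 49.05 with IFN-γ and 53.3, 64.1 and 42.9 for the combination. The libraries with IFN-γ, alone or with *E. coli*, were above all others of the set, at 2.06 (SE 0.22, adjusted p = 1.02e-06) alone and 2.30 (SE 0.22, adjusted p = 8.3e-08) with *E. coli*, while 0.54 (SE 0.25, adjusted p = 0.105) with *E. coli* did not pass. Ddit4 was at 5.55, 5.96 and 5.66 CPM in libraries d to f and 11.98, 8.31 and 16.6 with IL-4, groups apart, with 1.08 (SE 0.30, adjusted p = 0.0456), a call that ended without library d, library f, IL-4 1 or IL-4 3 (adjusted p = 0.0753 to 0.179). Mxi1, a repressor that competes with MYC for its partner MAX, was at 104, 97.6 and 106 CPM in unstimulated libraries a to c, 92.6, 90.3 and 106 with *E. coli*, 249, 259.9 and 306 with IFN-γ and 339, 312 and 332 for the combination. Libraries with *E. coli* alone overlapped the unstimulated ones, at -0.098 (SE 0.12, adjusted p = 0.568), and those with IFN-γ were far above, at 1.40 (SE 0.11, adjusted p = 2.09e-08) alone and 1.67 (SE 0.11, adjusted p = 6.67e-10) with *E. coli*. With IL-4 Mxi1 was at 69.99, 88.5 and 66.8 CPM in libraries d to f and 115, 102 and 119 with IL-4, at 0.57 (SE 0.15, adjusted p = 0.0339), a call that ended without library d, library f, IL-4 1, IL-4 2 or IL-4 3 (adjusted p = 0.0727 to 0.13). Ndrg1, known as a suppressor of metastasis, was at 2.61, 1.27 and 2.48 CPM in unstimulated libraries a to c, 3.26, 2.67 and 8.39 with *E. coli*, 19.6, 25.6 and 23.5 with IFN-γ and 56.97, 64.1 and 98.3 for the combination. It was above the unstimulated libraries in each stimulated library, at 3.32 (SE 0.41) with IFN-γ and 4.99 (SE 0.35) with both, and at 0.98 (SE 0.53, adjusted p = 0.173) with *E. coli*, which did not pass. Ndrg1 was at 5.28, 6.79 and 11.7 CPM in libraries d to f and 18.1, 16.3 and 13.5 with IL-4, and 0.99 (SE 0.30, adjusted p = 0.0596) did not pass although no library overlapped.

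Of the remaining targets, Ankrd37 was at 2.24, 6.34 and 4.96 CPM in unstimulated libraries a to c, 32.6, 35.1 and 38.02 with *E. coli*, 73.9, 85.6 and 84.4 with IFN-γ and 121, 153 and 134 for the combination. The groups were far apart, and unstimulated library a was the lowest. Its log2 fold changes were 3.04 (SE 0.24) with *E. coli*, 4.25 (0.23) with IFN-γ and 4.99 (0.22) for the combination, with adjusted p of 3.27e-08, 6.79e-11 and 1.86e-12. It needed stimulated libraries to pass the filter on low counts, so that these calls are no support. Ankrd37 was at 10.8, 17.1 and 10.4 CPM in libraries d to f and 15.03, 15.3 and 13.998 with IL-4, overlapping groups with 0.20 (SE 0.24, adjusted p = 0.647). Wsb1, a ubiquitin ligase subunit known to target VHL, was at 143, 138 and 158 CPM in unstimulated libraries a to c, 209, 207 and 175 with *E. coli*, 294, 329 and 394 with IFN-γ and 345, 362 and 421 for the combination. Stimulated libraries were all above the unstimulated ones, at 0.43 (SE 0.13) with *E. coli*, 1.21 (0.13) with IFN-γ and 1.36 (0.13) for the combination, with adjusted p of 0.015, 7.25e-07 and 6.29e-08, the first of which did not pass without library a, *E. coli* 1 or *E. coli* 2 (adjusted p = 0.0563 to 0.0601). It was at 213, 181 and 204 CPM in libraries d to f and 280.4, 228 and 241 with IL-4, and 0.33 (SE 0.13, adjusted p = 0.138) did not pass.

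Anxa2, a calcium-dependent membrane-binding protein, was at 103, 69.1 and 104 CPM in unstimulated libraries a to c, 119, 112 and 185 with *E. coli*, 199, 255 and 225 with IFN-γ and 226, 344 and 365 for the combination. Again every stimulated library was above the unstimulated ones, of which b was the lowest, at 0.56 (SE 0.20) with *E. coli*, 1.28 (0.20) with IFN-γ and 1.74 (0.20) for the combination, with adjusted p of 0.0448, 8.58e-05 and 1.03e-06. The rise with *E. coli* did not pass without library a, library b or *E. coli* 3 (adjusted p = 0.0663 to 0.246). Anxa2 was at 239, 217 and 300.3 CPM in libraries d to f and 279, 291 and 328 with IL-4, and 0.25 (SE 0.14, adjusted p = 0.313) did not pass. Rbpj, the DNA-binding factor of Notch signalling, had 0.40 (SE 0.12, adjusted p = 0.0198) with *E. coli*, a call that ended without library a, *E. coli* 1 or *E. coli* 2 (adjusted p = 0.0565 to 0.105), and 0.39 (SE 0.12, adjusted p = 0.0138) with both, one that ended without library a or both stimuli 1 (adjusted p = 0.0524 to 0.0781), and its other values, 0.28 with IFN-γ and -0.31 with IL-4, did not pass. A processed pseudogene shares 1441 bases with Rbpj at 99.7% identity, so its counts are uncertain. Ankzf1, a factor of ribosome quality control, passed with both stimuli only, at 0.60 (SE 0.23, adjusted p = 0.0357) with overlapping groups, a call that ended without library a, library c, both stimuli 2 or both stimuli 3 (adjusted p = 0.0979 to 0.155) and in a fit of only the 6 libraries compared (adjusted p = 0.0766), and its values with *E. coli*, IFN-γ and IL-4 were -0.21, 0.47 and 0.22.

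**Figure D3:**
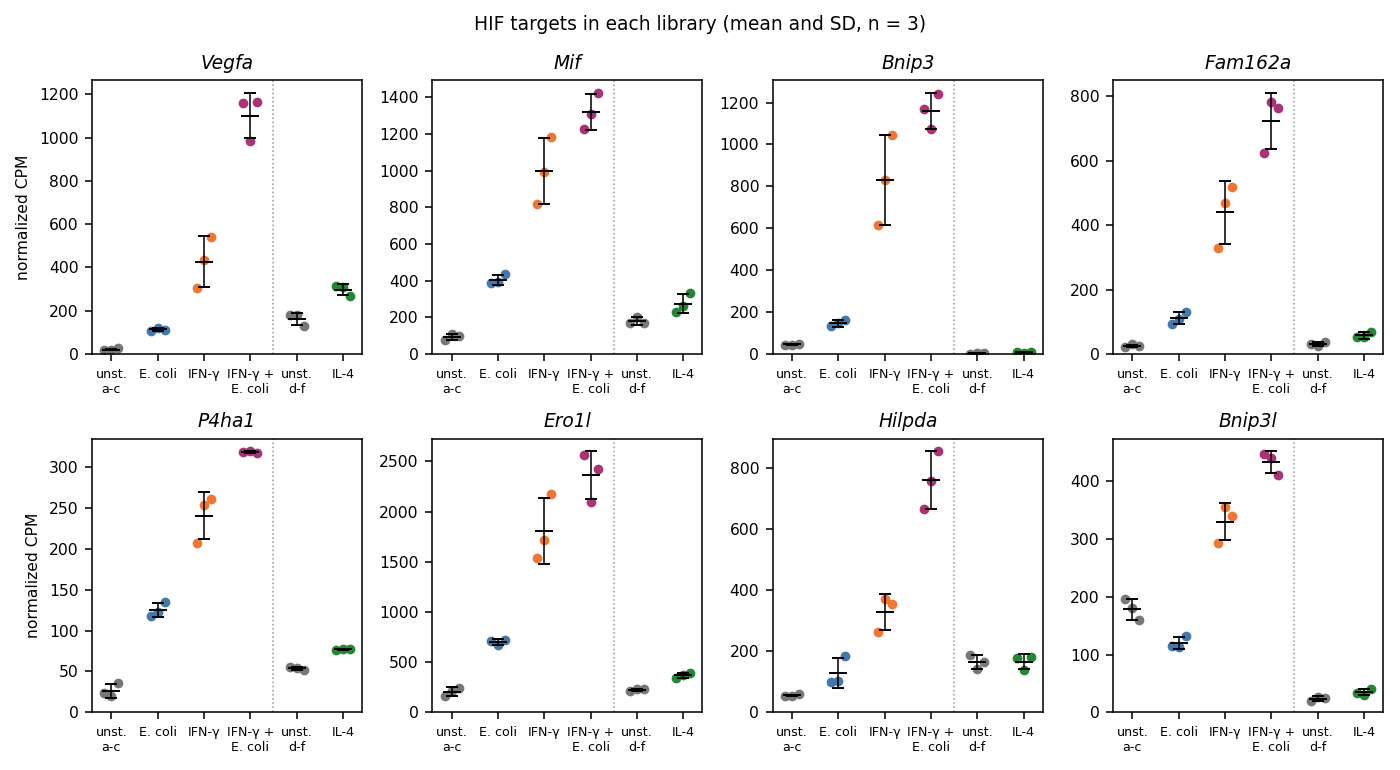
Normalized CPM of 8 HIF targets in each library, with the mean and SD of 3 libraries; the dotted line separates the file sets, whose levels are not comparable. For each target but Bnip3l the libraries with E. coli lie above unstimulated libraries a to c, and those with IFN-γ above those with E. coli; Bnip3l is lowest with E. coli.

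The effect of the combination was then set against the sum of the single effects. Their interaction, how far the effect of the combination lies from that of *E. coli* plus that of IFN-γ in log2 units, was called for 9 of 33 members tested, where 4.62% of all genes tested were called. It was negative for 8, the combination then having the smaller effect: Ankrd37 at -2.29 (SE 0.30, adjusted p = 0.000182), Egln3 at -2.25 (SE 0.20, adjusted p = 3.68e-06), P4ha1 at -1.80 (SE 0.21, adjusted p = 7.73e-05), Mif at -1.69 (SE 0.20, adjusted p = 8.23e-05), Fam162a at -1.41 (SE 0.25, adjusted p = 0.00254), Ero1l at -1.37 (SE 0.21, adjusted p = 0.000843), Bnip3 at -1.19 (SE 0.23, adjusted p = 0.00394) and Vegfa at -1.06 (SE 0.26, adjusted p = 0.0229). For Bnip3l it was positive, at 0.97 (SE 0.16, adjusted p = 0.00155): *E. coli* lowered it in the absence of IFN-γ, and with IFN-γ present it was higher with *E. coli* than without. The median interaction was -0.28 over the tested members and 0.0042 over all genes tested. Of all genes tested it was called positive for 255 and negative for 202, or for 226 and 266 when scaled by library totals. Under that scaling it was negative for 8 members and positive for 1. Ankrd37 is among these members though it needed stimulated libraries to pass the filter on low counts. For Vegfa the call was lost without unstimulated a or b, *E. coli* 2 or library 2 of both stimuli (adjusted p = 0.0507 to 0.0972), and with counts corrected for the ceiling its interaction was -0.88 (adjusted p = 0.0707).

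Adding *E. coli* to IFN-γ raised part of the list further. Ndrg1 was 3.18-fold higher than with IFN-γ alone, Vegfa 2.58-fold, Hilpda 2.31-fold and P4ha2 2.18-fold. Of 33 members tested, 12 were called higher, where 6.25% of all genes tested were, and none lower, where 5.98% were (0 at an unadjusted p under 0.05 in edgeR and 0 by DESeq2); they were Egln3, Hif1an, Vegfa, Stc2, Bnip3, Bnip3l, Fam162a, P4ha2, Hilpda, Plin2, Ndrg1 and Ankrd37. Without the 6 members that had no unstimulated library over the filter's minimum, 9 of 27 were higher. Fitted on only the 6 libraries compared, an alternative added after seeing the data, 9 of the members were higher, where 447 of all 8768 genes tested were. Egln3, Bnip3 and Bnip3l did not pass in that fit (adjusted p = 0.0613, 0.0825 and 0.0563). The median log2 difference was 0.42, and 0.0055 over all genes tested. Without 1 library the count was 6 to 16, and the members whose call ended were Egln3 without IFN-γ 1, IFN-γ 2, both stimuli 1 or both stimuli 3 (0.0849 to 0.184), Stc2 without IFN-γ 1 or both stimuli 1 (0.117 to 0.125), Bnip3 without IFN-γ 1, IFN-γ 2, both stimuli 1, both stimuli 2 or both stimuli 3 (0.0548 to 0.201), Bnip3l without IFN-γ 1, both stimuli 1 or both stimuli 2 (0.0694 to 0.143), P4ha2 without IFN-γ 1, IFN-γ 2 or both stimuli 2 (0.0683 to 0.178) and Plin2 without IFN-γ 1, IFN-γ 2, IFN-γ 3, both stimuli 2 or both stimuli 3 (0.065 to 0.115), with the adjusted p in parentheses. With library totals in place of TMM, 443 genes were higher and 815 lower, in place of 618 and 591, and 9 members were higher.

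Adding IFN-γ to *E. coli* raised more of it. Vegfa was 9.68-fold higher than with *E. coli* alone, Bnip3 7.901-fold and Fam162a 6.56-fold. Of 33 members tested, 27 were called higher, where 17.5% of all genes tested were, and 1, Pgf, lower, where 15.3% were. Without Pgf, Adm, Stc2, Mgarp, P4ha2 and Ndrg1, of which all but P4ha2 had at most 1 group of this comparison over the minimum in every library, 22 of 27 were higher and 0 lower. The 5 that did not pass were Arnt, Egln2, Hif1an, Plod1 and Rbpj. The median log2 difference was 1.75, and -0.018 over all genes tested. Hif1a differed by 0.37 (SE 0.13, adjusted p = 0.0303), a call lost without *E. coli* 2, *E. coli* 3, both stimuli 1 or both stimuli 3 (0.0638 to 0.129) and, with counts corrected for the ceiling, at 0.28; Vhl was lost without *E. coli* 2 or both stimuli 3 (0.0825 to 0.0965). Ero1l differed by 1.75, or 2.75 after that correction. Scaled by library totals, which shifted the median of all genes by -0.23, 1097 genes were higher and 2859 lower, in place of 1725 and 1515, and 25 members were higher and 1 lower.

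The response to IL-4 and the response to both stimuli were then compared directly. The difference was called for 30 of 34 members tested, where 39.2% of all genes tested were called, and each of the 30 responded lower to IL-4; none was higher at an unadjusted p under 0.05 in edgeR or by DESeq2. Without the 6 members that had no unstimulated library of the first set over the filter's minimum, 25 of 28 were called. Vegfa differed by -4.90 (SE 0.27, adjusted p = 1.39e-11), Mif by -3.25 (SE 0.22, adjusted p = 2.92e-10) and Egln1 by -2.13 (SE 0.24, adjusted p = 4.74e-07). Epas1, Egln2, Pgf and Ankzf1 did not pass. The median difference was -1.88 over the tested members and 0.00050 over all genes tested, and only the call of Arnt was lost without 1 library, library 3 of both stimuli (adjusted p = 0.0543). Scaled by library totals, which shifted the median of all genes by 0.37, 3177 genes were higher and 1252 lower, in place of 1974 and 2210, and 24 members were lower. With counts corrected for the ceiling, 30 members were called as well, and Ero1l differed by -4.08 in place of -2.86. Each response was measured in 1 file set only, and the file set cannot be told apart from this contrast.

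Other genes that regulate HIF were a list of 29 outside the members. Of 25 tested in the first set, 5 rose and 2 fell with *E. coli* (median log2 0.16), where 13.5% and 16.7% of all genes tested did, 8 rose and 3 fell with IFN-γ (0.21), where 15.6% and 16% did, and 12 rose and 2 fell with both (0.32), where 23.9% and 25.2% did. Of 26 tested in the IL-4 set 2 rose and none fell (-0.062), where 5.97% and 4.35% of all genes did; there 3 were lower at an unadjusted p under 0.05 in edgeR and 0 by DESeq2. The chaperones of HIF-1α were among the rises, Hsp90ab1 at 0.98 (SE 0.10, adjusted p = 9.65e-07) with *E. coli* and 1.47 (SE 0.11, adjusted p = 1.62e-09) with both and Hsp90aa1 at 1.04 (SE 0.14, adjusted p = 9.7e-06) with IFN-γ. Stat3, known to act on Hif1a transcription, rose by 1.27 (SE 0.12, adjusted p = 1.22e-07) with IFN-γ. Cited2, which competes with HIF for the coactivators CBP and p300, went the other way. It was at 106, 103 and 64.4 CPM in unstimulated libraries a to c, 45.7, 36.8 and 53.8 with *E. coli*, 38.6, 37.4 and 35.97 with IFN-γ and 24.8, 17.5 and 22.4 for the combination. It fell in all 3 comparisons, by 2.02-fold, 2.43-fold and 4.25-fold, with log2 fold changes of -1.01 (SE 0.18) with *E. coli*, -1.28 (0.19) with IFN-γ and -2.09 (0.21) for the combination and adjusted p of 0.0003, 4.63e-05 and 1.87e-07. In the IL-4 set Cited2 was at 53.9, 35.8 and 41.3 CPM in libraries d to f and 95.1, 88.4 and 90.2 with IL-4, a rise of 1.07 (SE 0.16, adjusted p = 0.0028), and its responses to IL-4 and to both stimuli differed by 3.10 (SE 0.27, adjusted p = 1.24e-08). The other rise with IL-4, Nfkb1 at 0.64 (SE 0.14, adjusted p = 0.0151), did not pass without IL-4 1 or IL-4 2 (adjusted p = 0.0757 to 0.0979). Against all 6 unstimulated libraries the calls of Hsp90aa1 with IFN-γ, at 2.01 (adjusted p = 0.0722), and of Nfkb1 with IL-4, at 0.27 (adjusted p = 0.329), ended, and those of Hsp90ab1, Stat3 and Cited2 did not.

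The other HIF targets outside glycolysis were a list of 40 genes. In the order of *E. coli*, IFN-γ, both and IL-4, 13.5%, 15.6%, 23.9% and 5.97% of all genes tested rose, and 16.7%, 16%, 25.2% and 4.35% fell. Of 25 tested targets in the first set, 10 rose and 2 fell with *E. coli* (median log2 0.36, or 0.26 with genes at 3 counts or fewer set at 3 counts), 16 rose and 3 fell with IFN-γ (0.81) and 20 rose and 2 fell with both (1.28). Of 32 tested in the IL-4 set, 9 rose and 3 fell (0.067). Some genes in these counts passed the filter on low counts only through libraries in which they were high, so that their calls are no support. Ak4 had 1, 0 and 2 counts in libraries a to c, 11, 13 and 20 with IFN-γ and 16, 30 and 37 with both. Edn1 had 0, 3 and 1 counts in libraries d to f and 60, 80 and 39 with IL-4. Counts without such genes are not given for the lists outside the members. Gys1, glycogen synthase, rose by 1.84 (SE 0.27, adjusted p = 4.18e-05) with *E. coli*, 4.04 (SE 0.24, adjusted p = 4.17e-10) with IFN-γ and 4.92 (SE 0.24, adjusted p = 8.62e-12) with both. Nos2, inducible nitric oxide synthase and a known target of IFN-γ and NF-κB as well, rose by 1.65 (SE 0.25, adjusted p = 5.16e-05), 3.76 (SE 0.25, adjusted p = 1.5e-09) and 4.73 (SE 0.26, adjusted p = 3.27e-11) in the same comparisons. Bhlhe40, a repressor that HIF induces, fell by 0.62 (SE 0.12, adjusted p = 0.000665) with IFN-γ on the log2 scale. With IL-4 the carbonic anhydrase Car12 rose by 3.16 (SE 0.43, adjusted p = 0.00141), with 7, 5 and 3 counts in libraries d to f and 44, 58 and 40 with IL-4. It passed the filter on low counts through the IL-4 libraries, so that this call is no support. The repressor Bhlhe41 and the heme oxygenase Hmox1 had -3.39 (SE 0.28, adjusted p = 9.61e-05) and -2.14 (SE 0.18, adjusted p = 9.61e-05). Bhlhe41 in turn passed through libraries d to f, with 56, 112 and 99 counts there and 7, 10 and 8 with IL-4. Against all 6 unstimulated libraries the calls with *E. coli* ended for Gys1, at 1.03 (adjusted p = 0.0517), and Nos2, at 0.38 (adjusted p = 0.582), while with IFN-γ and both Gys1 was at 3.25 and 4.16 and Nos2 at 2.49 and 3.48, and with IL-4 Car12 was at 3.90, Bhlhe41 at -2.58 and Hmox1 at -1.54, each still called. Beside the same shares of all genes, of 19 glycolytic targets 11, 18 and 18 rose with *E. coli*, IFN-γ and both (median log2 0.54, 1.45 and 1.73) and 2 of 18 tested with IL-4 (0.33), and none fell (1, 0, 0 and 1 were lower at an unadjusted p under 0.05 in edgeR, and 0 by DESeq2). Those higher with IL-4 were Aldoc, which did not pass without IL-4 1 or IL-4 3 (adjusted p = 0.0619 to 0.0886), and Pdk1, which did not pass without library d, library f, IL-4 1, IL-4 2 or IL-4 3 (adjusted p = 0.0543 to 0.14), nor against all 6 unstimulated libraries, at 0.30 (adjusted p = 0.564), where Aldoc was at 2.13 and called. Some glycolytic targets had few counts in the IL-4 set, though others, such as Aldoa, had many. Gapdh had 28, 18 and 21 counts in libraries d to f and 33, 37 and 25 with IL-4. Pgam1 had 2, 9 and 5 and then 6, 4 and 8. The glycolytic count with IL-4 and those of the first set are therefore not directly comparable.

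The promoters of the members were searched for the core letters of the hypoxia response element in the 250 bases before each RefSeq start. The motifs were ACGTG and GCGTG and their reverse complements CACGT and CACGC; the palindrome CACGTG holds both ACGTG and CACGT, and CACGCGTG holds CACGC and GCGTG. In RefSeq's promoter table for GRCm38.p6, 30 of the 35 members were matched, and Epas1, Bnip3l, Plod2, Kdm4b and Ndrg1 were not. Of their 40 windows, 29 (72.5%) held a motif, where 38.6% of all 32851 windows did, and 27 of the 30 members (90%) had at least 1 such window, where 41.5% of all genes did. The members were partly chosen as known HIF targets, and a match is a description of the letters only. Below are 5 of these promoters, picked after their values were seen for large rises with all 3 stimuli and at most 30 bases of overlap with exons annotated on the strand of the gene. Exons on the other strand were not counted. The promoters are written 5′ to 3′ on the strand of the gene, with the motifs in capitals. They lie at chr8:45999851-46000100 (minus strand, 4 motif starts), chr7:138909507-138909756 (minus, 5), chr10:59323046-59323295 (plus, 3), chr11:54100674-54100923 (plus, 3) and chr12:54203875-54204124 (minus, 1) of GRCm38. Among these genes P4ha2 and Ankrd37 needed stimulated libraries to pass the filter on low counts, so that their calls against libraries a to c are no support. The P4ha2 call with *E. coli* also ended against all 6 unstimulated libraries.
Ankrd37: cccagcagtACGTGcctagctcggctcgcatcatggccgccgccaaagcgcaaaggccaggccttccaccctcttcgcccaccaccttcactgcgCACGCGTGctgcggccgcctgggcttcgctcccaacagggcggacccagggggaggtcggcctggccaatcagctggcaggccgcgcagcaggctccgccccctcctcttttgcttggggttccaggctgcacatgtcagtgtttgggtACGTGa
Bnip3: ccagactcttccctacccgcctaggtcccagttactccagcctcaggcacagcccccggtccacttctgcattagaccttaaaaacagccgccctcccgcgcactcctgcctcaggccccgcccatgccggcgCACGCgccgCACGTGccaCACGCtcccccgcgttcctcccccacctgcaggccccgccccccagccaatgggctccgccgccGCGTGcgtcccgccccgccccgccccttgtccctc
P4ha1: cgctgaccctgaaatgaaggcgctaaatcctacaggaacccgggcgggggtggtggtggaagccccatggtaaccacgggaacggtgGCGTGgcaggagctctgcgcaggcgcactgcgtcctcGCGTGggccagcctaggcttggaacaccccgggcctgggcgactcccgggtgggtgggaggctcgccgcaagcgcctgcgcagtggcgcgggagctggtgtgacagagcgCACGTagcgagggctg
P4ha2: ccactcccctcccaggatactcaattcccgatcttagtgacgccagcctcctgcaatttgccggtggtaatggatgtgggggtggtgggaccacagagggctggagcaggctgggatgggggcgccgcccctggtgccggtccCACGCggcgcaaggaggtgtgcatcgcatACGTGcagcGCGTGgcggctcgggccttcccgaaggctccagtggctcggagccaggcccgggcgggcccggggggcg
Egln3: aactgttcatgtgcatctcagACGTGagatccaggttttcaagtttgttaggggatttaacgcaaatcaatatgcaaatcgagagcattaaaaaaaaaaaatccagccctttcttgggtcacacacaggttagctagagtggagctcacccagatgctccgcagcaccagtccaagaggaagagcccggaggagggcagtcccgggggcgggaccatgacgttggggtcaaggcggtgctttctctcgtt

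The genes themselves lie at chr12:73901375-73947530 (Hif1a, plus strand), chr12:54178981-54203860 (Egln3, minus), chr17:46016993-46032369 (Vegfa, minus), chr7:138890836-138909519 (Bnip3, minus), chr14:45283087-45318771 (Ero1l, minus), chr10:59323296-59373304 (P4ha1, plus) and chr8:45996902-46005707 (Ankrd37, minus) of GRCm38, all annotated as protein coding. Whether counting used the strand is not stated, and values of genes with an overlapping neighbour are uncertain for that reason. Hif1a overlaps Gm49321 on its strand and Gm15283 on the other. On the other strand Ankrd37 overlaps Lrp2bp and Ufsp2, Ndrg1 Gm17035 and Gm2895, Ankzf1 Atg9a and Glb1l, Bnip3 Gm45507, Fam162a Wdr5b, Higd1a Gm47112, Mxi1 Gm10197, Anxa2 Gm16144, Egln2 Cyp2t4 and Plod2 Gm38391. Near-identical transcripts of other genes were found for 11 of the 35 members, among them Mif with 4 genes, of which 3 are pseudogenes, and Bnip3l with 1 pseudogene over 1131 bases at 99.4% identity.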

How the data were processed

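Gene counts of 18 libraries of mouse eosinophils were used as the authors deposited them, as whole-number counts per Ensembl gene without normalization. By the study's methods and the submitters' processing notes, reads of CEL-Seq libraries were mapped with TopHat2 2.1.0 and those with 1 position counted with HTSeq 0.6.1, reads of another RNA-seq run were trimmed with fastp 0.20.1 and aligned with STAR 2.7.2a, and the build was GRCm38. Which libraries each run holds and whether molecular identifiers were collapsed are not given in the sources used here. Lines that name no gene (no feature, 18.9% to 37.6%, and ambiguous, 1.84% to 2.27%, in the set of *E. coli* and IFN-γ) were left out. Counts on genes were 1523808 to 2734041 per library (median 1975355) there and 3625036 to 6482289 (median 5208194) for IL-4. A floor of 3 counts is 1.003 to 2.19 CPM and 0.497 to 0.833 CPM after TMM, respectively.

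Low counts were filtered with filterByExpr of edgeR, libraries were scaled by TMM, and groups were compared with the quasi-likelihood test of edgeR, p-values being adjusted by Benjamini and Hochberg's method over all genes tested (R 4.3.3, edgeR 4.0.16, limma 3.58.1), at an adjusted p under 0.05. One model held the 12 libraries of the first set and another the 6 of the IL-4 set, with the difference between responses from a model of all 18. A standard error is the log2 fold change over the square root of its F value, and so approximate. Where a group had 3 counts or fewer in every library, the ratio of summed counts is given with an exact binomial 95% interval, which covers counting error only. Members and lists were chosen with earlier results of these data known. Values per library are given for members called against unstimulated cells and changed by 2-fold or more, and for the subunits and sensors; of the other lists, genes with the 3 largest rises or falls were open to naming. Alternatives were DESeq2 1.42.0, its size factors, library totals, other filters on counts, a 2-fold threshold, each library left out, all 6 unstimulated libraries as 1 group, only the compared groups, a replicate block and a correction for the count ceiling, the last chosen after seeing the data. Near-identical transcripts (at least 95% identity over 200 bases) were found with blastn 2.17.0, and promoters were read from RefSeq's table for GRCm38.p6.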

Additional observations from a re-analysis of the deposited data

Results flagged for a closer look

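The effect of *E. coli* differed with and without IFN-γ, by the interaction test across all genes, for 9 members. Of all genes tested 4.62% were called, 255 positive and 202 negative. On the log2 scale the interaction was -2.25 for Egln3, -1.06 for Vegfa, -1.69 for Mif, -1.19 for Bnip3, 0.97 for Bnip3l, -1.41 for Fam162a, -1.80 for P4ha1, -1.37 for Ero1l and -2.29 for Ankrd37. Ankrd37 needed stimulated libraries to pass the filter on low counts. With counts corrected for the ceiling of 6-base identifiers, a correction chosen after seeing the data, the interactions of Ero1l, Egln3, Vegfa, Mif and Bnip3 were -1.26, -2.23, -0.88, -1.73 and -1.14, and that of Vegfa no longer passed (adjusted p = 0.0707).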

How the results depend on the processing

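Members called higher numbered 15 to 23 with *E. coli*, 25 to 28 with IFN-γ, 28 to 31 with both stimuli, 4 to 13 with IL-4, 6 to 16 for both against IFN-γ and 25 to 27 for both against *E. coli* when each library was left out in turn, and members called lower 1 to 1, 0 to 1, 0 to 0, 0 to 2, 0 to 0 and 1 to 1; the interaction was called for 8 to 10 and the IL-4 difference for 29 to 30. With a 2-fold change required as well, the counts were 11 higher and 0 lower with *E. coli*, 3 and 0 with IL-4, and 5 higher for both against IFN-γ. With all 6 unstimulated libraries as 1 group, 13 were higher with *E. coli*, 1 was lower with IFN-γ and 1 with both, and 0 were lower with IL-4. Library totals without TMM gave 1 lower with IFN-γ and 1 lower with IL-4. At least 10 counts in every library left out Pgf, which gave 0 lower for both against *E. coli*. Other counts stayed within 1.5 times under the settings other than leaving out a library, DESeq2 and the ceiling correction, chosen after seeing the data, included. The replicate number as a block, fitted on the 6 libraries compared, gave 20 higher for both against IFN-γ (677 of all 8768 genes tested). The same 6 libraries without the block, a fit added after seeing the data, gave 9 (447 of 8768). For both against *E. coli* the block gave 27 higher and 1 lower (1685 and 1457 of all 9193 genes tested), the same member counts as without it (1517 and 1366 of 9193). The replicate numbers do not pair the samples: same-numbered libraries correlated in their deviations at -0.04, 0.21 and 0.33 for IFN-γ and both, and at 0.07, 0.0986 and 0.16 for *E. coli* and both, and not every library correlated best with its own number. Of 5878 alternatives of single genes, 5509 kept direction and side of the threshold, 284 lost it, 28 gained it and 57 changed sign. The sign changed with all 6 unstimulated libraries as 1 group for *E. coli* Ndrg1 -0.53, Arnt -0.43, Wsb1 -0.044, Bnip3l 0.23, Vegfa -0.057, Ankzf1 0.49, Plin2 -0.18, Adm -0.40, Anxa2 -0.61, Hif1an -0.039, Mgarp -0.43, Hilpda -0.084, Egln2 -0.089, and for IFN-γ Arnt -0.34, Egln2 -0.18, Nfkb1 0.037, and for both stimuli Arnt -0.29, Egln2 -0.077, and for IL-4 Ankzf1 -0.99, Arnt 0.42, Bnip3 -1.14, Bnip3l -1.16, Higd1a -0.33, Kdm4b 0.083, Epas1 0.26, Hif1an 0.23; with library totals for IFN-γ Egln2 -0.16, and for both stimuli Pgf -0.090, Egln2 -0.16; with at least 10 counts in every library for IFN-γ Egln2 -0.026; with DESeq2's size factors for IL-4 Hilpda -0.0037; with DESeq2 for IL-4 Hilpda -0.0036; with no filter on low counts for IL-4 Hilpda -0.016. Leaving out each library in turn spanned 0 for *E. coli* Stc2 -1.76 to 1.64, Ankzf1 -0.34 to 0.041, and for IFN-γ Hif1an -0.24 to 0.046, Egln2 -0.043 to 0.087, and for both stimuli Pgf -0.51 to 0.52, and for IL-4 Ankzf1 -0.019 to 0.49, Plod1 -0.32 to 0.0063, Hilpda -0.091 to 0.11, Kdm3a -0.048 to 0.24, Vhl -0.17 to 0.51, Egln2 -0.36 to 0.013, P4ha2 -0.14 to 0.82, Kdm4b -0.22 to 0.0099, Epas1 -0.56 to 0.022, Hif1an -0.23 to 0.12. The cause was not tested. Depth limits Adm, Stc2, Mgarp, Pgf, P4ha2, Epas1 and Plod2, with few counts in 1 or more groups.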
